A study of Mus musculus with 46 samples.

Results

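The 10 immediate early genes followed here are Fos, Fosb, Jun, Junb, Jund, Egr1, Egr2, Egr3, Atf3 and Ier2. They were taken by name from the 20999 genes of the count table, and all 10 passed the filter on low counts that left 12230 genes. Immediate early genes are switched on within minutes of a stimulus, from promoters that are already open and without new protein synthesis. Fos and Fosb pair with Jun, Junb or Jund to form the AP-1 transcription factor, Atf3 is a stress-induced relative that can join the same dimers, Egr1, Egr2 and Egr3 are zinc finger transcription factors, and Ier2 is a small early response protein. Their transcripts are short-lived, and in microglia they are known to respond both to signals in the brain and to the handling of cells during isolation.

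The study compared proliferating with resting microglia, the macrophages of the brain, which here were all taken from male animals of the C57BL/6 strain. RNA was sequenced in 5 groups of 2 libraries, which the labels call independent biological replicates. Adult microglia came from untreated wild-type mice of 90 days and are labelled Ki67-negative. Microglia of postnatal day 8 (PND8) and repopulating microglia were taken from Ki67-rfp animals, whose cells fluoresce when they make Ki67, and were sorted as Ki67-negative or Ki67-positive, Ki67 being a protein of cycling cells. The repopulating cells came from mice of 75 days that had received PLX5622, a drug that inhibits CSF1R and removes microglia, from day 55 for 17 days, followed by 3 days of recovery. H3K27ac, a histone acetylation found at active regulatory DNA, was profiled in 6 groups of 2: adult cells of 60 and 65 days, PND8 Ki67-negative and Ki67-positive cells, Ki67-negative and Ki67-positive cells of 90 days after 4 weeks of cuprizone, a toxin that strips myelin, and repopulating Ki67-positive cells labelled 90 days, with PLX5622 from day 70 for 17 days and 3 days of recovery. Rpb2, a subunit of RNA polymerase II, had 2 adult libraries (60 and 65 days) and 1 of PND8 Ki67-positive cells, and H3K4me3, a mark of promoters, had 2 adult libraries of 75 days. All mice of these ChIP-seq groups are labelled wild-type. Open chromatin by ATAC-seq had 1 library each of adult cells of 80 days, PND8 Ki67-positive cells and repopulating Ki67-positive cells of 75 days, with PLX5622 from day 55 for 17 days and 3 days of recovery. The genotype label of all 3 is wild-type, while the titles of the PND8 and repopulation libraries name the Ki67 reporter. All cells were kept cold during isolation with sodium butyrate and flavopiridol, which inhibit histone deacetylases and transcriptional kinases, per the labels. Cells for RNA were sorted alive by the reporter, and those for ChIP-seq were fixed first and then stained for Ki67.

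RNA libraries held 6865903 to 10287876 counts. All 8 microglia markers (among them Csf1r, P2ry12 and Tmem119) had counts in every RNA library, with a summed level of 6508 to 8741 CPM, the count scaled to a library's normalised total. The 6 neuronal markers summed to 2.16 to 9.26 CPM, the 5 astrocyte markers to 5.01 to 24.6 CPM, the 6 of the oligodendrocyte lineage to 70.2 to 135.9 CPM and the 5 endothelial ones to 27.04 to 81.8 CPM. The 4 erythroid markers summed to 15.0 to 51.2 CPM in the PND8 libraries and to at most 4.64 CPM in the other 6, and the 5 lymphocyte markers to at most 1.21 CPM. The 6 markers of border macrophages, which line the brain's surfaces, summed to 598.5 to 856.7 CPM in the 4 PND8 libraries against 63.2 and 77.1 CPM in adult libraries and 26.2 to 42.9 CPM in repopulation. Those of monocytes and neutrophils summed to 210.7 and 61.6 CPM in the adult libraries and to at most 9.26 CPM in the other 8. The names of the libraries in the file headers hold a number, called the header code here, whose meaning no label gives. Both adult libraries carry 190710, replicate 1 of both PND8 groups carries 191107, replicate 2 of both PND8 groups and replicate 1 of both repopulation groups carry 200309, and replicate 2 of both repopulation groups carries 200313. The code and the adult group cannot be told apart.

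In the mm10 build, Fos (NM_010234) occupies chromosome 12 from 85473890 to 85477274 on the plus strand, Egr2 (NM_010118) chromosome 10 from 67537869 to 67542188 on the plus strand, Jun (NM_010591) chromosome 4 from 95049036 to 95052222 on the minus strand, and Junb (NM_008416) chromosome 8 from 84976909 to 84978748 on the minus strand. Egr3 (NM_018781) begins at 70077317 on chromosome 14, plus strand, and Jund (NM_010592) at 70697739 on chromosome 8, plus strand. The 250 bases before the start site are given for 4 members from RefSeq (GRCm38.p6), because these promoters carried H3K27ac regions and ATAC-seq peaks in every library and because the RNA of these genes behaved differently between groups. They are chr12:85473640-85473889 (Fos), chr10:67537619-67537868 (Egr2), chr4:95052223-95052472 (Jun) and chr8:84978749-84978998 (Junb). They run 5′ to 3′ on the gene's strand, and capitals mark motif matches.
Fos: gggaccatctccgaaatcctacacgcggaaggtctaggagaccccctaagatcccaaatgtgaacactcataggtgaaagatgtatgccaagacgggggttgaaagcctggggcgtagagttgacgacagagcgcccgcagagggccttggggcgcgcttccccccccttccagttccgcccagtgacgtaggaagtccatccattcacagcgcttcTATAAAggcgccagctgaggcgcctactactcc
Egr2: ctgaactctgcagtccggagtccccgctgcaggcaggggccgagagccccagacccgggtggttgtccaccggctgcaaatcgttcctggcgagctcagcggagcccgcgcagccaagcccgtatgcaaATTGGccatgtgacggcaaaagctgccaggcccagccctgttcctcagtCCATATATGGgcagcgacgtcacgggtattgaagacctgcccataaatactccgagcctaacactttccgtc
Jun: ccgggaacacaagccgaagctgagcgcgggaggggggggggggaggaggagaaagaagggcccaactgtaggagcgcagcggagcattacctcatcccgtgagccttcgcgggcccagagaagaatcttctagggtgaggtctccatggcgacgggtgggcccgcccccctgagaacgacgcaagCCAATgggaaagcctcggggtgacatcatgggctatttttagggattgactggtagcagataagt
Junb: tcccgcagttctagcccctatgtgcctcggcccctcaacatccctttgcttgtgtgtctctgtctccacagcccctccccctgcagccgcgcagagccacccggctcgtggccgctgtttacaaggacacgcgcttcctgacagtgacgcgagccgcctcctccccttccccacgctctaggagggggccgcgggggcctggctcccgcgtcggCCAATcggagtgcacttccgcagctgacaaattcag
Capitals in Fos are TATAAA, the TATA box motif, starting 33 bases before the start site. In Egr2 they are a CArG box, the element bound by serum response factor, at 72 to 63 bases before the start, and a CCAAT box on the other strand (ATTGG). In Jun and Junb they are CCAAT, 65 and 36 bases before the start. Among 32851 promoters of the same length in the table, 1.47% held a CArG box, 12.4% TATAAA and 33.8% CCAAT, searched on both strands. TGACGTCA (1.55% of promoters) and TGANTCA (6.75%), the motifs of CREB and AP-1 dimers, were searched too and have no exact match in these windows. Near variants, such as TGACATCA in the Jun promoter, were not searched, so sites for these factors may be missed. GCGNGGGCG (4.7%), the motif of EGR proteins, was matched only in Fosb among the 7 members whose promoter was looked at. Promoters were looked up for 9 members, all but Egr1, and 7 were matched by symbol.

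Per length, Junb, Jun and Jund were the most steadily abundant members. The lowest and highest of the 10 libraries held 70.3 and 197.1 TPM (transcript abundance scaled for length and depth) of Junb, 54.3 and 163.1 TPM of Jun and 54.9 and 102.7 TPM of Jund. Fos ran from 1.53 to 208.3 TPM and Egr1 from 5.38 to 279.4 TPM, the widest spans in TPM of the 10. Ier2 lay between 8.55 and 82.8 TPM and Atf3 between 5.00 and 27.9 TPM. Egr2 (0.836 to 4.23 TPM), Fosb (0.057 to 6.53 TPM) and Egr3 (0.161 to 3.68 TPM) were low in every library. The TPM table used another transcript than the count table for Egr2 and Egr3.

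**Figure D1:**
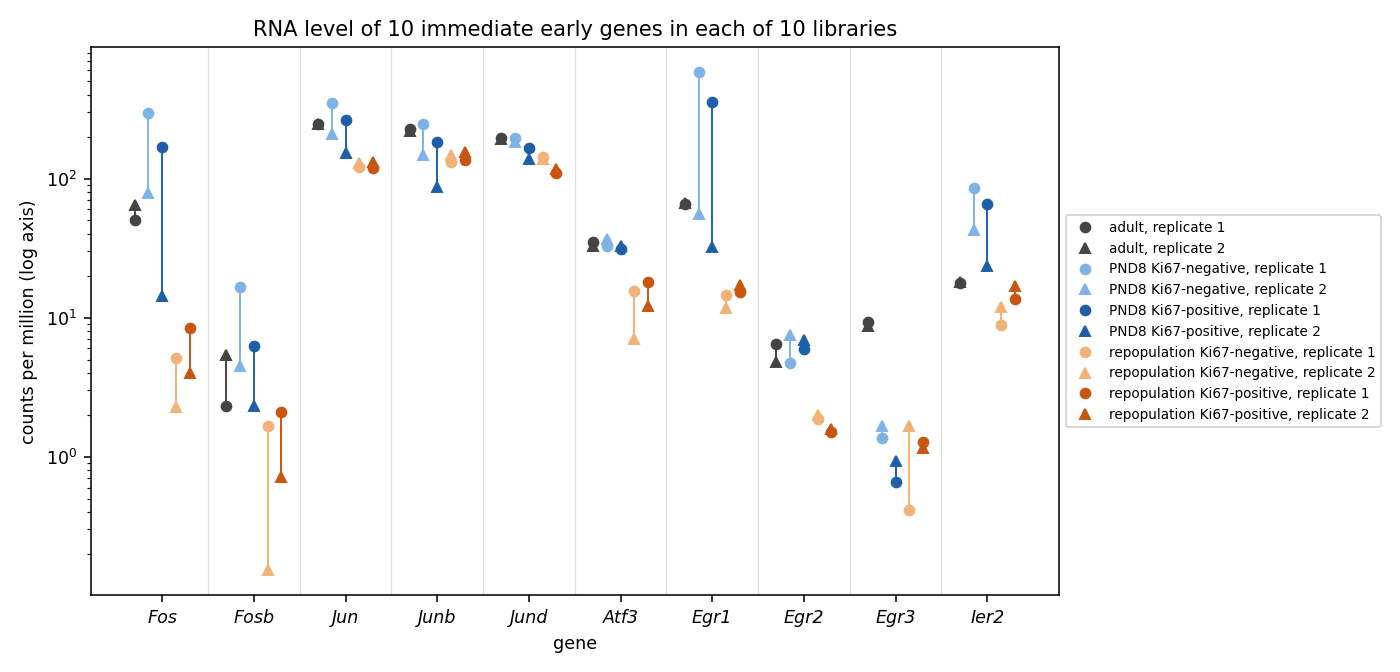
RNA level of the 10 genes in CPM (log axis) in each of the 10 libraries, with circles for replicate 1, triangles for replicate 2 and a line joining the replicates of a group. Fos and Egr1 spread widest between the PND8 replicates, and Egr3 stood at 9.25 and 8.67 CPM in the adult libraries and at most at 1.68 CPM in the others.

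The largest differences among libraries of 1 group were at PND8, where replicate 1 was far above replicate 2 in both Ki67 groups. Egr1 stood at 581 CPM in replicate 1 and 55.2 CPM in replicate 2 of the Ki67-negative cells, and at 354 and 32.0 CPM in the Ki67-positive cells. Both replicate 1 libraries were thus above all 8 other RNA libraries, while both replicate 2 libraries were below the adult 65.8 and 66.6 CPM. Fos, the partner of Jun in AP-1, had 297 and 78.8 CPM in the Ki67-negative and 170 and 14.2 CPM in the Ki67-positive cells, so replicate 2 of the Ki67-positive cells was below both adult libraries (50.7 and 64.1 CPM). Ier2 had 85.2 and 42.6 CPM in the Ki67-negative and 65.4 and 23.5 CPM in the Ki67-positive cells. Fosb followed with 16.7 and 4.49 CPM and with 6.27 and 2.31 CPM.

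The difference did not run through the whole set. Jun and Junb, with levels above 85 CPM in all libraries, were 1.67 and 1.65 times higher in replicate 1 of the Ki67-negative cells and 1.74 and 2.12 times higher in that of the Ki67-positive cells. Jund, the member known for constitutive rather than induced transcription, differed by 1.08 and 1.18 times. Atf3, Egr2 and Egr3 were lower in replicate 1 in both groups, Atf3 with 32.8 against 36.6 CPM and 30.9 against 32.9 CPM. When the 12230 genes were ordered by the smaller of their 2 replicate differences in the same direction (log2 of CPM with 0.5 added), Egr1 ranked 1st, Fos 10th, Fosb 32nd, Ier2 63rd, Jun 129th, Junb 135th and Jund 1486th. Only 61 genes were more than 2-fold higher in replicate 1 of both PND8 groups, and 3 of them were members (Egr1, Fos and Fosb). The other high ranks held genes of other kinds, such as Map7 (rank 2), Slc4a1 (rank 3), Cxcl2 (rank 4), the choroid plexus and glial gene Enpp2 (rank 6) and the early response gene Ier3 (rank 17). In the other direction, 33 genes were more than 2-fold higher in replicate 2 of both groups, and 0 of them were members. The farthest was the kinase gene Prkd1, with log2 ratios of -6.24 and -6.35.

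**Figure D2:**
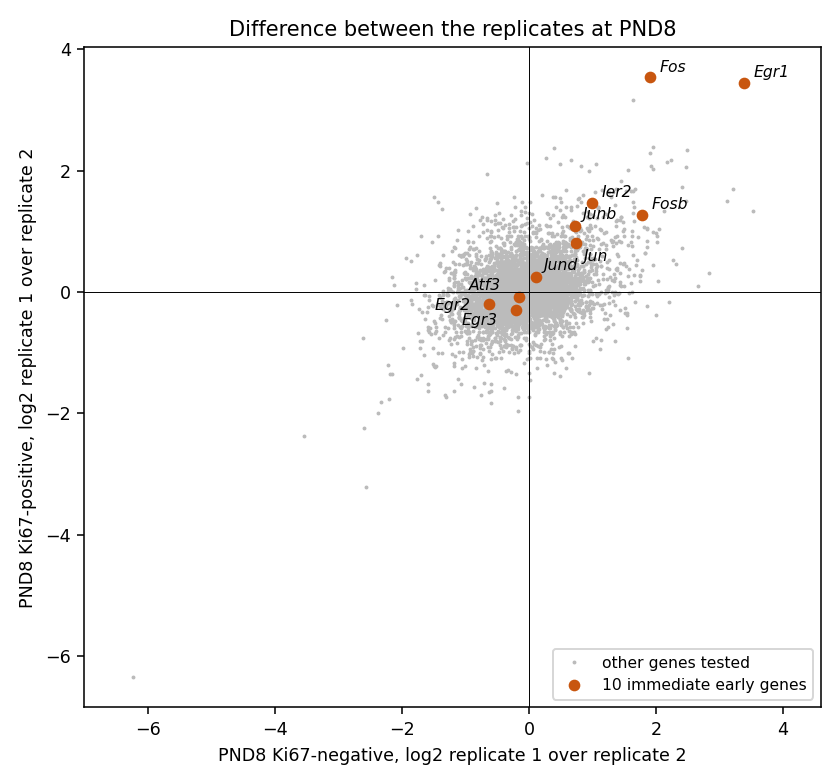
Log2 ratio of replicate 1 over replicate 2 (CPM with 0.5 added) in PND8 Ki67-negative cells (x axis) and Ki67-positive cells (y axis) for the 12230 tested genes in grey and the 10 members in orange. Egr1 (3.38 and 3.45) is the farthest gene to the upper right, with Fos at 1.91 and 3.53, while Atf3, Egr2 and Egr3 lie just below 0 on both axes.

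The astrocyte markers summed to 24.6 and 21.1 CPM in the 2 PND8 replicate 1 libraries against 7.88 and 12.3 CPM in replicate 2. Border macrophage markers were at 784.3 against 598.5 CPM in Ki67-negative cells and 856.7 against 843.3 CPM in Ki67-positive cells. The libraries also differ in header code (191107 against 200309). Erythroid markers were at 51.2 and 38.0 CPM in the replicate 1 libraries against 20.1 and 15.0 CPM in replicate 2. What part any of these has in the difference between replicates was not tested. In the adult pair Egr1 differed by 1.01, Jun by 1.01 and Ier2 by 1.01 times, and only Fosb differed by more than 2-fold (2.31 and 5.37 CPM). With 0.5 added to each CPM, members more than 2-fold apart numbered 3 of 10 in PND8 Ki67-negative, 5 in PND8 Ki67-positive, 4 in repopulation Ki67-negative and 1 in repopulation Ki67-positive cells, where 3.79%, 2.18%, 1.4% and 1.18% of all 12230 genes were. Without the 0.5, Fos was 2.10-fold apart in repopulation Ki67-positive cells as well. In the Ki67-negative repopulation pair the 4 members were Fos, Fosb, Egr3 and Atf3. Fosb there rested on 16 and 1 counts and Egr3 on 4 and 11 counts, so that 1 library of each pair lay below or near the floor of 3 counts (0.457 CPM in the library with 1 count of Fosb and 0.312 CPM in that with 4 of Egr3).

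Comparing Ki67-positive with Ki67-negative cells asked whether the early genes moved with proliferation. At PND8, none of the 10 passed the test (edgeR, adjusted p at most 0.05), where 5.9% of the 12230 genes did. Only 1 member (Jund) had an unadjusted p under 0.05, and DESeq2 called 0 members too. The fitted log2 difference of Fos was -1.02 ± 0.72 (SE), that of Egr1 -0.71 ± 0.84 and that of Jund -0.32 ± 0.09 (adjusted p = 0.481, 0.713 and 0.0634). In this fit, which pairs no libraries, neither Fos nor Egr1 differed beyond the spread between replicates. The median of the members was -0.53, against -0.03 over all genes.

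Within each header code the same members stood lower in the Ki67-positive library. Within code 191107 the log2 difference was -0.80 for Fos, -0.71 for Egr1, -0.41 for Jun, -0.42 for Junb, -0.25 for Jund and -0.38 for Ier2. Within code 200309 these were -2.45, -0.78, -0.47, -0.78, -0.39 and -0.86. With the code as a term in the fit, 7 members fell in Ki67-positive cells, where 8.85% of all genes did. These were Fos (-1.38 ± 0.21, adjusted p = 0.000182), Egr1 (-0.74 ± 0.08, adjusted p = 2.03e-06), Jun (-0.44 ± 0.06), Junb (-0.59 ± 0.08), Jund (-0.32 ± 0.07), Ier2 (-0.59 ± 0.13) and Fosb (-1.23 ± 0.38). Egr2, Egr3 and Atf3 did not pass (adjusted p = 0.895, 0.346 and 0.628). Without replicate 1 of the Ki67-positive cells, the fit with no such term called 3 members lower (Fos, Junb and Ier2).

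In repopulation none of the 10 passed between Ki67-positive and Ki67-negative cells either, where 2.74% of all genes did. DESeq2 called 0 members, and Jund alone had an unadjusted p under 0.05. Jund, a Jun protein associated with slower growth, had 109 and 118 CPM in the Ki67-positive and 143 and 139 CPM in the Ki67-negative libraries, a log2 difference of -0.31 ± 0.10 (adjusted p = 0.11) that nearly equals the one at PND8. It passed with the header code as a term (adjusted p = 0.00949), where 4.98% of all genes fell. Without replicate 2 of the PND8 Ki67-negative cells, Jund was called (adjusted p = 0.0469). Fos had 8.44 and 4.03 CPM in Ki67-positive against 5.10 and 2.28 CPM in Ki67-negative cells, with overlapping groups, and Jun 120 and 131 against 121 and 130 CPM. The difference between the Ki67 effects of the 2 settings was called for 0 members (edgeR adjusted p from 0.96 to 1) and for 0% of all genes, with 0 members under an unadjusted p of 0.05 and 0 members called by DESeq2. With the header code as a term, 3 members were called (Egr1, adjusted p = 0.00911, Ier2, 0.0328, and Junb, 0.0198), where 0.229% of all genes were.

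Most of the early genes tested lower in repopulating than in adult microglia. The comparison asked how cells that refill an emptied brain differ from settled adult cells. Against adult cells, 6 of 10 members fell in Ki67-negative and 6 in Ki67-positive repopulating cells, and 0 rose (edgeR). Fos, Jun, Jund, Egr2, Egr3 and Atf3 were called in both. Of all 12230 genes, 17.6% fell and 21.5% rose in the Ki67-negative comparison, and 21% fell and 23.9% rose in the Ki67-positive one. All 10 members had both repopulation libraries below both adult libraries in either comparison, as did 37.3% and 38.6% of all genes. Both comparisons use the same 2 adult libraries. In bulk RNA, fewer cells with a transcript and less of it per cell cannot be told apart. Border macrophage and monocyte markers were lower in repopulation than in the adult as well (26.2 to 42.9 against 63.2 and 77.1 CPM, and 5.55 to 9.26 against 210.7 and 61.6 CPM), and their part in these changes was not tested. The median log2 change of the 10 members was -1.54 and -1.27, against -0.01 over all genes in both.

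Fos had 5.10 and 2.28 CPM in Ki67-negative and 8.44 and 4.03 CPM in Ki67-positive repopulating cells, all under the adult 50.7 and 64.1 CPM. The log2 changes were -3.87 ± 1.06 (adjusted p = 0.0108) and -3.16 ± 0.98 (adjusted p = 0.0181). The call in Ki67-negative cells was lost when either of their libraries was left out (-4.64, adjusted p = 0.055, for the first, and -3.49, adjusted p = 0.0772, for the second). That in Ki67-positive cells was lost in the same way (-3.85, adjusted p = 0.0521, and -2.76, adjusted p = 0.103), and also without adult replicate 2 (-2.98, adjusted p = 0.0637). The direction was the same each time, and no repopulation library reached an adult one. Jun, which can act in AP-1 without Fos, stood at 120 to 131 CPM in the 4 repopulation libraries against 249 and 247 CPM in the adult. Its log2 change was -0.98 ± 0.23 in both comparisons (adjusted p = 0.00459 and 0.00367).

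Atf3, induced by cellular stress, had 15.6 and 7.01 CPM in the Ki67-negative and 18.1 and 12.1 CPM in the Ki67-positive libraries, below the adult 34.9 and 32.7 CPM. It fell by 1.53 ± 0.27 and by 1.15 ± 0.26 on the log2 scale (adjusted p = 0.00055 and 0.00286). Egr2, a zinc finger factor of myeloid differentiation, had 1.87 and 1.98 and then 1.50 and 1.58 CPM against 6.47 and 4.76 CPM in the adult. It fell by 1.54 ± 0.38 and 1.86 ± 0.40 (adjusted p = 0.00632 and 0.00197), the former not being called without adult replicate 1 (-1.30, adjusted p = 0.0569). Jund fell least of the 6, by 0.46 ± 0.09 and 0.78 ± 0.09. Egr1 had 14.5, 11.7, 15.4 and 17.1 CPM in the 4 libraries against 65.8 and 66.6 CPM in the adult without overlap, yet its log2 changes of -2.32 ± 1.09 and -2.03 ± 1.07 did not pass (adjusted p = 0.111 and 0.139). Its SE came from a spread that the fit shares over all 5 groups, PND8 included. Without any 1 PND8 library, Egr1 was called in Ki67-negative cells (adjusted p from 0.0306 to 0.0422), and so was Junb in both comparisons (adjusted p from 0.0104 to 0.0362). With only the repopulation Ki67-negative and adult libraries in the fit, all 10 members were called. The share of all genes called in that fit is not given here, so the count cannot be read as a trait of the members.

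**Figure D3:**
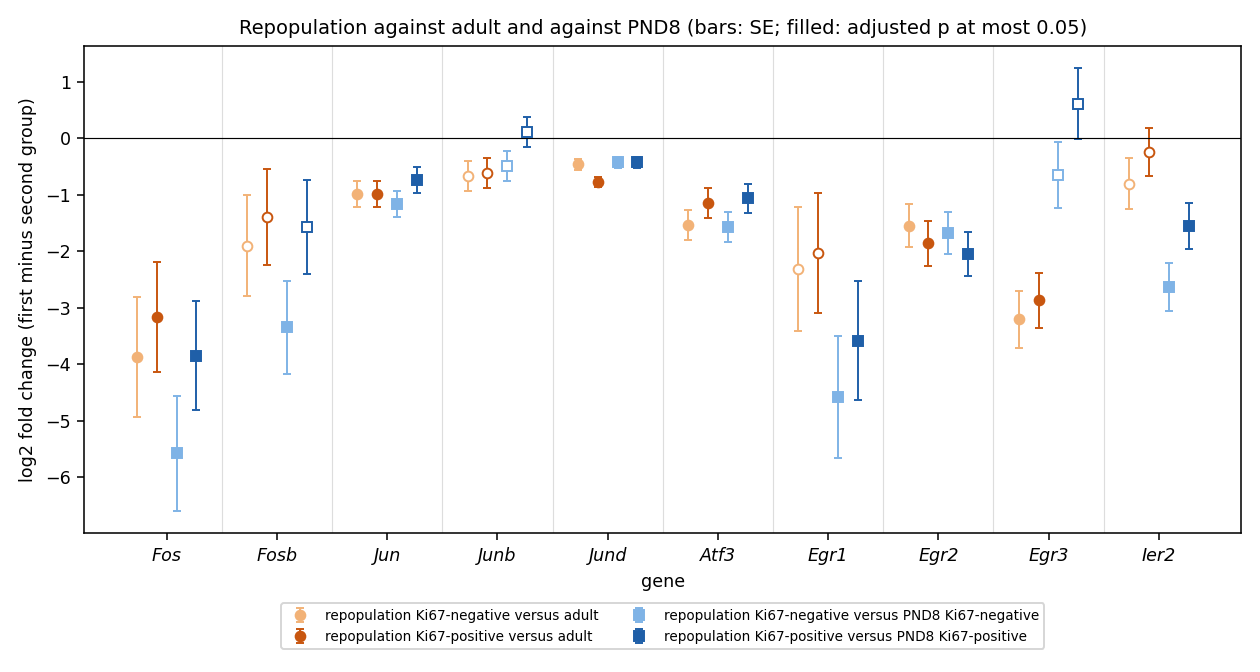
Log2 fold change with its SE (bars) of the 10 members in repopulating against adult cells (orange circles) and against PND8 cells of the same Ki67 status (blue squares), filled where the adjusted p was at most 0.05. Most points lie below 0, with Fos reaching -5.57 in the Ki67-negative comparison with PND8, while Junb is open in all 4 comparisons.

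Against PND8 cells of the same Ki67 status, 8 members fell in Ki67-negative repopulating cells (all but Junb and Egr3) and 7 in Ki67-positive ones (Fos, Jun, Jund, Egr1, Egr2, Atf3 and Ier2), and 0 rose. Of all genes, 18.6% fell and 18% rose in the former comparison, and 14.2% fell and 16.7% rose in the latter. The Ki67-negative values were -5.57 ± 1.02 for Fos, -4.57 ± 1.08 for Egr1, -2.64 ± 0.42 for Ier2 and -1.57 ± 0.26 for Atf3 (adjusted p = 0.000943, 0.00504, 0.000349 and 0.000499). The Ki67-positive values were -3.85 ± 0.96, -3.58 ± 1.05, -1.56 ± 0.41 and -1.07 ± 0.26 (adjusted p = 0.00829, 0.0192, 0.0106 and 0.00723). Egr2 fell by 1.68 ± 0.38 and 2.05 ± 0.39, and was called without any 1 library in both. Border macrophage markers summed to 598.5 to 856.7 CPM at PND8 and to 26.2 to 42.9 CPM in repopulation, and erythroid markers to 15.0 to 51.2 and to 0.416 to 1.37 CPM. Their part in these falls was not tested.

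The high PND8 replicate 1 libraries set the size of several of these. Without PND8 Ki67-positive replicate 1 the log2 change was -1.17 for Fos (adjusted p = 0.326), -1.01 for Egr1 (0.526), -0.30 for Jun (0.375), -0.66 for Ier2 (0.219) and -0.32 for Jund (0.0547). The members called there were Egr2 and Atf3, which fell, and Junb, which rose by 0.73 (0.0408). Without repopulation Ki67-positive replicate 1 or 2, 4 and 3 members were called: Egr1 (adjusted p = 0.106 and 0.0819) and Jun (0.127 and 0.0693) lost their calls in both, Ier2 without replicate 1 (0.0779), and Fos (0.0576) and Atf3 (0.0715) without replicate 2. Jun moved to -1.11 without PND8 Ki67-positive replicate 2. Without PND8 Ki67-negative replicate 1, Egr1 was at -2.06 (adjusted p = 0.09), Fosb at -2.13 (0.0606) and Jun at -0.75 (0.0139), while Fos, Jund, Egr2, Atf3 and Ier2 kept their calls. Fosb also lost its call without repopulation Ki67-negative replicate 2 (-2.63, adjusted p = 0.0502) and was at -5.96 without replicate 1. Within header code 200309, which PND8 replicate 2 and repopulation replicate 1 share, the Ki67-negative log2 difference was -3.89 for Fos, -1.92 for Egr1 and -2.24 for Ier2, and the Ki67-positive one -0.74, -1.05 and -0.78. With the code as a term, 8 members fell in Ki67-negative cells (22.4% of all genes did). In Ki67-positive cells 7 fell (17.1%), Fos by 1.52 and Egr1 by 0.99, and Junb rose by 0.56 ± 0.10 (adjusted p = 0.000337; 18.9% of all genes rose). PND8 and repopulation share no other code, so this fit sets their difference by PND8 replicate 2 and repopulation replicate 1. The other replicates of these settings add only their Ki67 differences. Its SE and adjusted p measure the spread within codes, not that between replicates of a setting.

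Against adult cells, PND8 cells gave no single direction. In Ki67-negative PND8 cells Ier2 rose (1.83 ± 0.39, adjusted p = 0.00199) and Egr3 fell, while 25.4% of all genes rose and 21.4% fell. In Ki67-positive cells Ier2 rose (1.32 ± 0.40, adjusted p = 0.0141), and Egr3, Junb (-0.72 ± 0.26, adjusted p = 0.0362) and Jund (-0.35 ± 0.09, adjusted p = 0.0067) fell, where 25.1% of all genes rose and 24.3% fell. Fos (1.70 ± 0.74 and 0.69 ± 0.74) and Egr1 (2.26 ± 0.90 and 1.55 ± 0.89) did not pass in either (adjusted p from 0.0551 to 0.464). In the Ki67-positive comparison Fos took its direction from 1 library: it fell by 2.01 without replicate 1 (adjusted p = 0.0299) and rose by 1.57 without replicate 2 (adjusted p = 0.0295). Without replicate 1, Ier2 dropped to 0.40 (adjusted p = 0.39) and Junb was at -1.36 (0.000589). Without Ki67-positive replicate 2, Junb was at -0.28 (0.335) and Jund at -0.23 (0.112). Without adult replicate 1 or 2, Junb (0.12 and 0.102) and Ier2 (0.0742 and 0.0692) lost their calls, leaving 2 members called. DESeq2 did not call Junb (0.14). In the Ki67-negative comparison, Egr1 and Fos were called higher as well when Ki67-negative replicate 2 or either Ki67-positive library was left out, and Fosb in the first case, which makes 5 and 4 members called.

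Egr3 was the member that set adult cells apart. It had 9.25 and 8.67 CPM (80 and 71 counts) in the adult and 1.36, 1.65, 0.66 and 0.92 CPM in the 4 PND8 libraries. Repopulation libraries had 0.42, 1.68, 1.27 and 1.15 CPM, so both adult libraries were above all 8 others, which overlap among themselves. The share of all genes with that pattern is not given here, so it cannot be read as particular to Egr3. Against repopulation alone, both adult libraries were above for 37.3% (Ki67-negative) and 38.6% (Ki67-positive) of all genes. The log2 difference from adult cells was -2.55 ± 0.46 and -3.48 ± 0.51 at PND8 (Ki67-negative, then Ki67-positive) and -3.20 ± 0.50 and -2.87 ± 0.48 in repopulation (adjusted p = 0.000531, 8.55e-05, 0.000251 and 0.00033). Each call held without any 1 library. All 4 comparisons share the adult libraries, which also differ from the rest in genotype and header code, so that these cannot be told apart from age or treatment for Egr3 or any other member. Monocyte and neutrophil markers summed to 210.7 and 61.6 CPM in the same adult libraries against at most 9.26 CPM in the others, and their part in the Egr3 difference was not tested.

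Ordered by mean CPM, Fos, Egr1 and Ier2 ran from PND8 Ki67-negative through PND8 Ki67-positive and adult to repopulation. The 2 PND8 groups overlapped for each of them, and for Fos and Egr1 the PND8 Ki67-positive and adult libraries overlapped as well. For Egr1 the PND8 Ki67-negative and adult libraries overlapped too (581 and 55.2 against 65.8 and 66.6 CPM). For Ier2 the adult 17.8 and 17.95 CPM were followed by 13.5 and 16.8 CPM in Ki67-positive and 8.84 and 11.9 CPM in Ki67-negative repopulating cells, differences from adult that did not pass (adjusted p = 0.677 and 0.176). Junb had its highest group mean in the adult (225 and 220 CPM), ranged from 86.3 to 245 CPM at PND8 and from 132 to 154 CPM in repopulation, and did not pass against adult cells in repopulation (adjusted p = 0.0601 and 0.0753). Jund was nearly equal in adult (195 and 192 CPM) and PND8 Ki67-negative cells (196 and 182 CPM).

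Genes around the early genes were read from lists of kinases, partners and feedback regulators. Upstream MAP kinases, which relay growth factor and stress signals to these promoters, were called about as often as all genes or less: of 15 tested, 3 rose and 1 fell in Ki67-negative repopulating cells against adult (21.5% and 17.6% of all genes), and 3 rose and 3 fell in Ki67-positive cells (23.9% and 21%). Among the latter was Mapk8, the Jun kinase JNK1, at -0.54 ± 0.12 (adjusted p = 0.00334). Of 11 feedback genes, which encode MAP kinase phosphatases, Sprouty proteins and mRNA decay factors and are often induced with the early genes, 0 rose and 5 fell in Ki67-negative and 7 fell in Ki67-positive cells. Dusp1, a phosphatase of p38 and JNK, had 10.2 and 6.40 CPM in Ki67-negative and 11.3 and 6.90 CPM in Ki67-positive repopulating cells against 27.7 and 30.0 CPM in the adult (log2 change -1.77 and -1.64, adjusted p = 0.000448 and 0.000565). Spry1, an inhibitor of receptor kinase signalling, fell by 1.72 and 1.98 (adjusted p = 9.52e-05 and 2.73e-05), and the calls of both genes held without any 1 library. Against PND8, 6 of the 11 fell and 1 rose in Ki67-negative cells, and 5 fell and 1 rose in Ki67-positive cells, Dusp2 by 3.50 and 3.12. The median of the 11 was -0.42, -0.45, -0.36 and -0.47 in these 4 comparisons, in the order given, against -0.01, -0.01, -0.04 and 0.00253 over all genes.

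The next lists can be read against the same shares of all genes, 21.5% rising and 17.6% falling in Ki67-negative and 23.9% and 21% in Ki67-positive cells. Of 20 other early response genes tested, 5 rose and 5 fell in Ki67-negative and 5 rose and 6 fell in Ki67-positive repopulating cells against adult, near those shares. Nr4a1, an orphan nuclear receptor, fell by 2.00 in Ki67-negative cells (3.33 and 1.52 against 8.09 and 12.3 CPM, adjusted p = 0.00164). Of 14 AP-1 and CREB partners, 0 rose and 4 fell, then 1 rose and 5 fell, with Atf4, a factor of amino acid stress, at -0.56 and -0.42 (adjusted p = 0.000134 and 0.000963). Fosl2, a Fos relative, rose against PND8 (1.30 and 1.20, adjusted p = 0.00109 and 0.0025) where Fos fell. Of 11 heat shock genes, 2 rose and 5 fell, then 5 rose and 5 fell, with the inducible chaperone Hspa1b at 1.35, 1.22, 1.39 and 0.43 CPM against 6.82 and 8.67 CPM in the adult. Of 6 EGR and SRF regulators, 0 were called in Ki67-negative cells and 1 rose in Ki67-positive cells. Between Ki67-positive and Ki67-negative cells at PND8, 1 gene each of the partners (Creb1), the EGR and SRF regulators (Nab2) and the other early genes (Klf6) rose and 0 fell in any list, each call being lost without some libraries. In repopulation 0 were called in all 6 lists.

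Over the 10 libraries, the genes whose log2 CPM was most like that of Fos were Dusp1 (Pearson r = 0.964), Trpm3 (0.956), Nedd4 (0.955), Tatdn2 (0.954) and Crcp (0.954). Those most like Egr1 were Slc38a3 (0.970), Adamts1 (0.954), S1pr4 (0.946), Fos (0.945) and Proser1 (0.939). Among members, Fos went with Jun (0.951) and Fosb (0.927) and least with Egr3 (0.259). The 10 libraries share groups, replicates and header codes, so these values describe these libraries only.

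Open chromatin was present at every member. In the adult, PND8 Ki67-positive and repopulating Ki67-positive ATAC-seq libraries, 10 of 10 members had a peak within 1 kb of the start site, as did 56.0%, 58.4% and 60.8% of all 20999 genes. A peak lay on the start site itself in 4, 5 and 4 members. Both adult H3K4me3 libraries had a region at 10 of 10 members (60.7% and 60.0% of genes). A Fos peak covered the start site in the adult and the repopulating Ki67-positive ATAC-seq library, centred 49 and 32 bases upstream. It stood 19.2% and 26.0% of the way down these lists, which differ in length, so the ranks show no change. Fos RNA was at 50.7 and 64.1 CPM in adult and at 8.44 and 4.03 CPM in repopulating Ki67-positive cells. RNA and ATAC-seq come from different libraries, and the adult ones from mice of different age.

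H3K27ac regions at the start sites covered 9 or 10 of the 10 members in each of the 12 libraries. The share of all genes with one was 41.3% and 46.0% in the adult libraries, 48.6% and 49.6% in PND8 Ki67-negative, 49.5% and 51.1% in PND8 Ki67-positive, 44.0% and 49.7% in cuprizone Ki67-negative, 46.0% and 50.8% in cuprizone Ki67-positive and 50.6% and 47.8% in repopulating cells. The signal used here is the authors' tag count per region, normalised within a library, and it ranks regions within that list only. Junb had the strongest mark, with regions 4178 to 10449 bases wide among the top 0.211% of each list. Jun stood in the top 0.996%, Ier2 in the top 3.51% and Jund in the top 6.95% of every list. Fos and Egr1, with the widest RNA range, had middling regions, Fos between 17.5% and 44.5% and Egr1 between 12.7% and 45.7% of the way down. In the 4 PND8 libraries the Fos region stood at 21.0% and 18.7% of its list in Ki67-negative and at 20.9% and 17.5% in Ki67-positive cells. The replicates of that mark come from other cells than the RNA. Egr1 regions ranked at 12.7% and 13.9% in the 2 repopulation lists and between 21.2% and 45.7% in the PND8 lists. The lists differ in length, so these ranks show no change. The Egr1 region covered the start site in both repopulation libraries, in all PND8 libraries but Ki67-negative replicate 2 and in neither adult library, where it ended upstream.

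Egr3 was the only member without a region within 1 kb in some libraries. It had none in all 4 PND8 libraries and in replicate 1 of both cuprizone groups, and it had one in both adult libraries, both repopulation libraries and replicate 2 of both cuprizone groups. These regions stood 60.2% and 44.2% of the way down the adult lists and 27.5% and 35.9% down the repopulation lists. In the cuprizone replicate 2 lists they stood at 50.9% (Ki67-negative) and 38.3% (Ki67-positive). The lists differ in length, so these ranks show no change. Egr3 RNA was at 9.25 and 8.67 CPM in the adult and at 1.27 and 1.15 CPM in repopulating Ki67-positive cells. The regions within 1 kb lay upstream, ending 72 to 994 bases before the start site. In the 4 PND8 libraries a region ended 1010 to 1873 bases before it, just outside the window. With 2 kb on each side, a window chosen after seeing the data, every H3K27ac library but cuprizone Ki67-negative replicate 1 had a region at Egr3. There the nearest region was 10223 bases away.

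**Figure D4:**
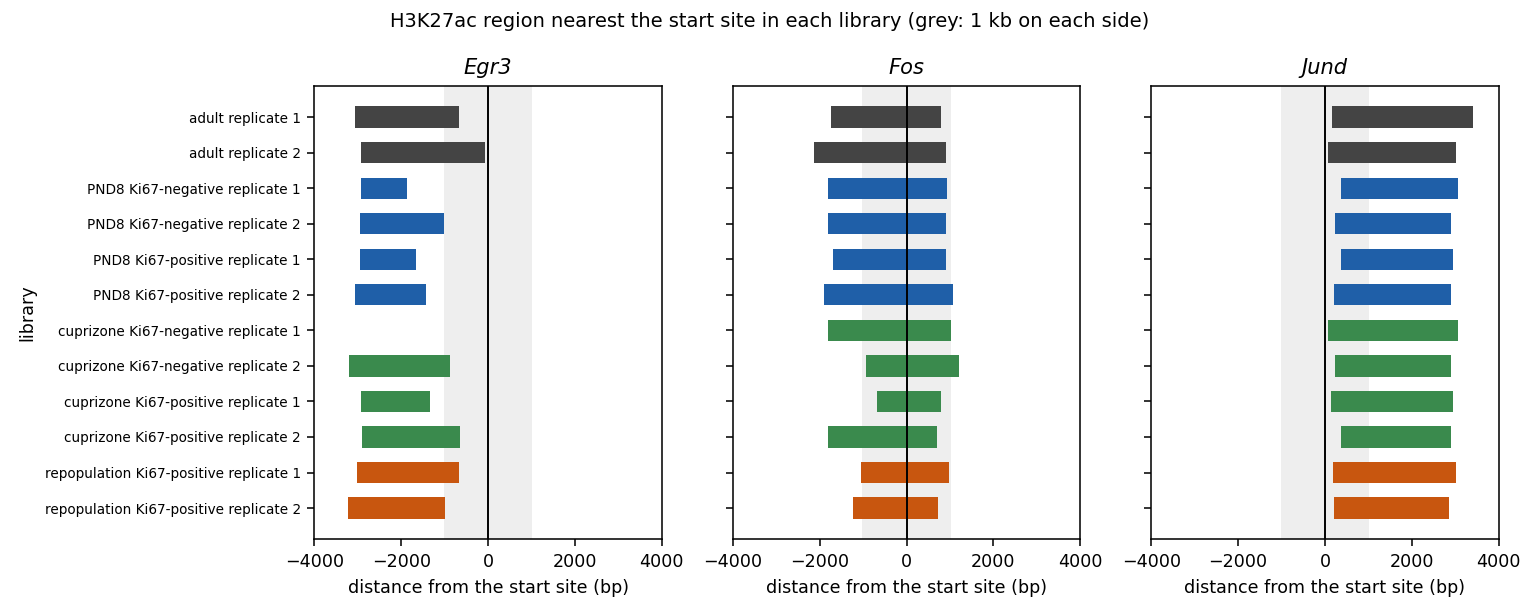
Span of the H3K27ac region nearest the start site of Egr3, Fos and Jund in each of the 12 libraries (bars), by distance from the start site in bp, with the 1 kb window in grey. Fos regions cover the start site in all 12 libraries, and Jund regions begin 71 to 367 bp inside the gene. Egr3 regions end upstream of the start site and lie outside the window in the 4 PND8 libraries and in replicate 1 of both cuprizone groups. That of cuprizone Ki67-negative replicate 1 lies beyond the axis.

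The regions of Jund began 71 to 367 bases downstream of its annotated start, and its ATAC-seq peaks were centred 710, 711 and 721 bases downstream. None of the 3 Rpb2 lists had a peak within 1 kb of that start, while each had one at 1283 to 1638 bases inside the gene, ranking 3rd to 112th of its list. The 250 bases before the annotated start had a GC content of 47.6%, against 58.4% to 68.8% for the other 6 members with a RefSeq promoter at the same start. For Jund, the window around the annotated start therefore missed the polymerase peaks of the gene.

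Rpb2 peaks were found at 7 and 8 members in the adult libraries and at 8 in PND8 Ki67-positive cells (36.0%, 30.6% and 48.4% of genes). Junb stood in the top 0.151% of each list. Fos stood at 0.351% and 1.9% of the adult lists and at 0.332% of the PND8 list. Jun had a peak only at PND8 (58th of its list, 48 bases past the start), and in both adult lists the nearest peak was 73078 and 73096 bases away although Jun RNA was at 249 and 247 CPM. Egr3 had peaks in both adult libraries, at 61.9% and 56.0% of the list, and none in PND8 Ki67-positive cells. Its RNA in PND8 Ki67-positive cells was at 0.66 and 0.92 CPM.

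The adult Rpb2 replicates differed in where the peaks lay. In replicate 1 the strongest peaks of Fos, Junb and Ier2 were centred 34, 65 and 31 bases past the start, in replicate 2 654, 617 and 1093 bases past it. Egr1 had no peak within 1 kb in replicate 1, whereas in replicate 2 its peak, 1036 bases past the start, was the strongest of the whole list. In replicate 2, 4 of the 8 members with a peak had the strongest one more than 300 bases past the start, against 0 of 7 in replicate 1 and 0 of 8 at PND8. Of these, Ier2 also had a weaker peak over its start in replicate 2 (69.5 against 99.2 tags). Over all genes with a peak the shares with the strongest one that far downstream were 7.64%, 9.54% and 7.65%. Narrowing the window to 500 bases on each side left 5 members in adult replicate 2. Both libraries are labelled untreated, of 60 and 65 days, but the title of replicate 2 gives day 60, and the library names in the headers of both adult Rpb2 and both adult H3K27ac lists hold a vehicle and a time. The 2 adult Rpb2 libraries also carry different header codes, 190118 and 201220, the latter shared with the PND8 library. Replicate 1 listed 14550 peaks holding 6.78% of its tags, and replicate 2 listed 10544 holding 3.19%. What sets the replicates apart was not tested.

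**Figure D5:**
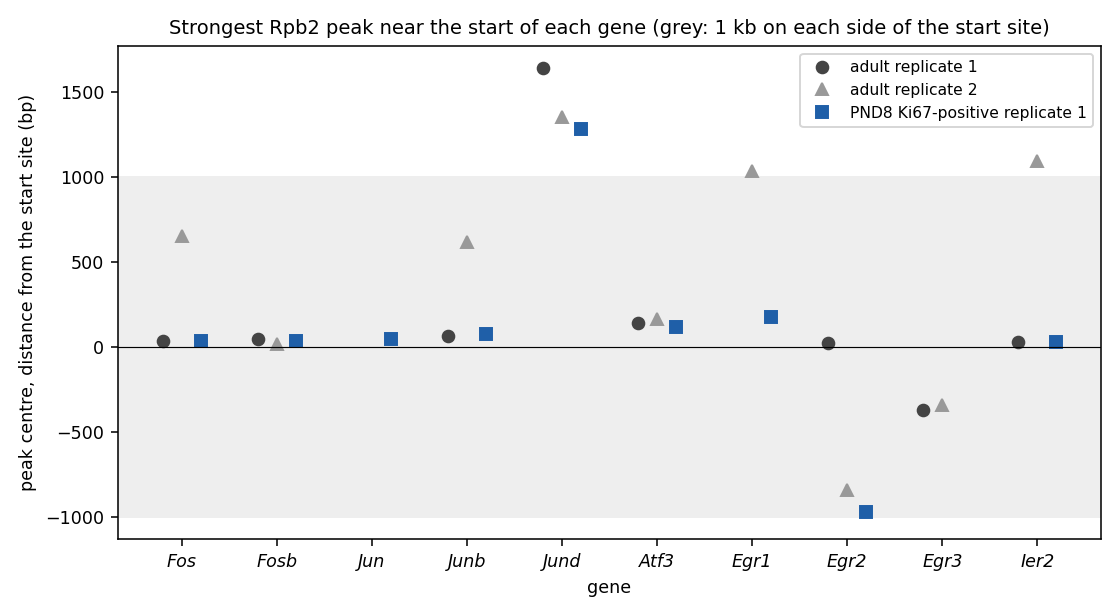
Centre of the strongest Rpb2 peak near the start of each member, in bp from the start site, for the 2 adult libraries and the PND8 Ki67-positive library, with the 1 kb window in grey. The strongest peaks of Fos, Junb, Egr1 and Ier2 lie further downstream in adult replicate 2 (654, 617, 1036 and 1093 bp) than in the PND8 library, Jund peaks lie beyond the window in all 3, and a missing symbol means that no peak was listed in the window or the gene.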

How the data were processed

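RNA was measured in 10 libraries, and peak lists of 20 further libraries were used. The members and gene lists were chosen with earlier results of these data known. Counts were made by the authors with HOMER analyzeRepeats over exons of mm10 transcripts, with at most 3 tags per position, which can hold down short abundant transcripts, and with no strand option, per the file headers. The deposited TPM values came from the same tool. The submitters' processing notes list STAR 2.7.0f, Bowtie2 2.3.4.1, HOMER 4.11 and DESeq2, with no roles. Region lists were called by the authors per library with HOMER. Their tag counts (signal normalised within a library) and scores were used within a list only, per the file headers. ATAC-seq lists name no build and were read as mm10.

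Counts were fitted with edgeR 4.0.16 in R 4.3.3 (TMM, filterByExpr, quasi-likelihood test, 1 fit of 5 groups, Benjamini-Hochberg over 12230 genes, threshold 0.05). CPM uses TMM-scaled totals. Errors are SEs of fitted log2 values. A floor of 3 counts was 0.275 to 0.457 CPM, which covers counting error only. On simulated counts of 11967 genes for PND8 Ki67-positive against adult cells, 192 of 200 genes with a 4-fold change were recovered and 8 unchanged genes were called. Every gene was simulated with the same spread, so this recovery does not hold for members with large replicate gaps such as Egr1. Alternatives were DESeq2 1.42.0, RLE factors, plain library sizes, no filter, limma 3.58.1 on log2 TPM (pseudocounts 1 and 0.1), only the groups compared, a replicate block, the header code as a term, and leaving out each library. Named genes were all members, up to 3 called genes with the largest change per other list and comparison, of which those named in the text are a part, and the 5 genes most like Fos and Egr1. Genes given by rank in the replicate difference, such as Map7, and the positions of Jund, Egr3 and Rpb2 peaks were singled out after their values were seen.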

Additional observations from a re-analysis of the deposited data

Results flagged for a closer look

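With the header code as a term, the difference between Ki67-positive and Ki67-negative cells was not the same in repopulation as at PND8 for 3 members. The log2 Ki67 difference in repopulation minus that at PND8 was 1.02 for Egr1 (adjusted p = 0.00911), 1.15 for Ier2 (0.0328) and 0.649 for Junb (0.0198), where 0.229% of all genes were called. At PND8 the Ki67-positive library of each code was the lower one for all 3 genes. In repopulation it was the higher one in each code. The log2 differences there were 0.09 and 0.54 for Egr1, 0.60 and 0.49 for Ier2, and only 0.06 and 0.06 for Junb. Without the term, the Ki67 difference in repopulation minus that at PND8 was 1.00, 1.08 and 0.60 for Egr1, Ier2 and Junb. The edgeR adjusted p were 0.983, 0.96 and 0.96. Leaving out 1 library at a time was done without the term, so it does not test these 3 calls.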

How the results depend on the processing

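Without the filter on low counts, members called were 7 in PND8 Ki67-positive against Ki67-negative cells, 5 and 7 in PND8 Ki67-negative and Ki67-positive against adult cells, 10 in repopulation Ki67-negative against adult cells and 4 for the difference between the Ki67 effects. That fit had no finite prior degrees of freedom, against a median of 8.265 with the filter. With only the groups compared, 10 were called in repopulation Ki67-negative against adult cells. For this fit and the one without the filter, the share of all genes called is not given. Their counts can therefore not be read as a trait of the members. The header code as a term gave 7 at PND8 and 1 in repopulation between the Ki67 groups, and 3 for the difference of the 2. With a replicate block, 1, 1 and 4 were called in Ki67-positive against Ki67-negative cells at PND8 and in repopulation and in PND8 Ki67-negative against adult cells. Same-numbered libraries deviated together at r = 0.338 at PND8 and 0.263 in repopulation, where they share a header code, and at -0.0084 to 0.0974 between other groups. The labels name no pairs and the main fit used none, so it leaves out what these libraries share within PND8 and within repopulation. The block, set over all 5 groups, does not match a link that holds within these settings only. It changed no other count by over 1.5 times. Leaving out 1 library gave 2 to 5 members in PND8 Ki67-negative and 2 to 5 in PND8 Ki67-positive against adult cells, 0 to 3 and 0 to 1 between the Ki67 groups at PND8 and in repopulation, and 3 to 7 in repopulation against PND8 Ki67-positive cells. Where this left a group with 1 library, that library is assumed to vary like the other groups. Fos in PND8 Ki67-positive against adult cells turned to -2.01 without PND8 Ki67-positive replicate 1 and was 1.57 without replicate 2. DESeq2, RLE factors, limma on log2 TPM and plain library sizes kept every count of members called within 1.5 times of the value reported. With the start site itself in place of the window, members with a region were 4, 5 and 4 by ATAC-seq (adult, PND8 and repopulation), 6 for H3K27ac in adult replicate 1, and 5 at PND8 and 2 in adult replicate 2 for Rpb2. Windows of 500 bases left 5 for Rpb2 in adult replicate 2. Regions scoring at or above the list median numbered 6 for H3K27ac in adult replicate 1, and 5 and 4 for H3K4me3.

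With 2 libraries a group, a 10-fold gap between replicates such as that of Egr1 leaves its group differences imprecise. Fosb and Egr3 rest on few counts in several libraries.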
